A study of Mus musculus with 16 samples.

Results

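The 10 genes described here encode muscle ubiquitin ligases and FoxO transcription factors: Fbxo32, Trim63, Fbxo30, Fbxo31, Fbxo40, Asb2, Nedd4, Foxo1, Foxo3 and Foxo4. They were taken by symbol from a count table of 11710 genes, where all 10 were present, and all 10 were among the 11709 genes that passed the filter on low counts. Messenger RNA was measured by RNA sequencing in rotator cuff muscle of C57BL/6J mice (BL6 below) and MRL/MpJ mice (MRL below), the latter an inbred strain known for unusually good healing of some wounds. In each strain 4 operated samples, from muscle whose tendon had been cut and whose nerve supply had been removed, were set against 4 unoperated samples. The sample labels name the supraspinatus and the description of the series names the infraspinatus, so the muscle is given here only as rotator cuff muscle. No transgene or drug is named for any of the 4 groups, no sham-operated group was analysed here, and age, sex and the time after surgery are not given in the labels used here. The labels number the samples 1 to 4 within a group without saying that each is a separate mouse, so p-values measure the spread between these samples, which may be technical.

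Ubiquitin ligases choose the proteins that are tagged with ubiquitin for destruction by the proteasome, and several of them are made mainly in striated muscle. Fbxo32 (atrogin-1 or MAFbx) and Trim63 (MuRF1) are the classic atrophy ligases, whose transcripts are known to rise early and transiently after denervation, fasting or unloading. FoxO factors are transcription factors that insulin and IGF signalling keeps out of the nucleus through Akt, and both atrophy ligases are among their known targets. Activity of FoxO proteins depends mainly on phosphorylation and location in the cell, which RNA sequencing does not measure.

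With surgery, 8 of the 10 transcripts fell in BL6, 1 rose (Foxo1) and 1 did not pass the test (Trim63), where 67.9% of all genes tested changed. In MRL 5 of the 10 fell (Fbxo32, Fbxo31, Fbxo40, Foxo4 and Asb2) and none rose by edgeR, where 45% of all genes changed. Fbxo32 was at 39.2% of its unoperated level in operated BL6 muscle and at 41.6% in operated MRL muscle. No difference between the strains in the response of any of the 10 passed the test, as for all but 0.248% of genes. MRL and BL6 differed in 2 of the 10 after surgery, Fbxo30 and Foxo1, and in none without it, beside 12.9% and 10.4% of all genes.

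Total counts ranged from 24323862 to 43552964 per sample, and the lowest count of any of the 10 genes in any sample was 236. Levels are given as CPM, the count per 1000000 counts of a sample after trimmed mean of M values (TMM) scaling, and changes as log2 fold changes with the standard error (SE) from edgeR's quasi-likelihood fit to all 16 samples. A gene is called changed at a Benjamini-Hochberg adjusted p under 0.05 over the 11709 genes tested. As a check of the labels, Myog, the myogenic factor that denervation is known to induce, was higher in every operated sample than in every unoperated sample of its strain. Of the 7 measured genes listed as denervation responsive, 3 rose in BL6 (Myog, Ncam1 and Runx1) and 5 in MRL (also Chrnd and Myh3). Of all genes tested, 35.1% rose in BL6 and 22.3% in MRL, so the count in BL6 was near that of all genes. Chrna1, a subunit gene of the muscle acetylcholine receptor, was lower in both strains (log2 change -0.47 in BL6, edgeR adjusted p = 0.00754, and -0.37 in MRL, adjusted p = 0.0426), and Gadd45a passed in neither. The 8 myofibre markers (Acta1, Ckm, Mb, Tnnt3, Myh4, Actn3, Pvalb and Atp2a1) together made up 52600 to 197000 CPM in all 16 samples. Operated MRL replicate 4 stood apart from the other operated samples, with 11.8% of its counts from mitochondrial genes against 17.4 to 24.9% in the others. The share was 11 to 14.2% in unoperated samples, so the other 7 operated samples lay above all unoperated ones and operated MRL replicate 4 lay within their range; its part in the changes below was not tested. Also, unoperated MRL replicate 1 had the highest summed macrophage markers of the unoperated samples (319 CPM, against 39 to 144 CPM in the others). Results in MRL are therefore also given without these samples, a choice made after seeing the data. They were also the lowest unoperated and the highest operated MRL sample in the summed level of the 10 genes (2110 and 2150 CPM). Leaving both out therefore had to enlarge the fall in that sum, and it is no independent support for a fall. Operated BL6 replicate 4, with the highest macrophage sum of all samples (537 CPM), was kept.

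Promoter sequences from RefSeq (GRCm38.p6), running from 250 bases before to 50 bases after a start site, were found for 8 of the 10 genes (not Fbxo32 and Foxo4), in 11 windows. They were searched on both strands for GTAAACA, the core that FoxO proteins bind, and for CAGCTG, an E-box of the kind that myogenic factors bind, which reads alike on both strands. The 3 windows below are shown because they belong to the atrophy ligase Trim63 and the pair of ligases with the highest levels per length in unoperated muscle, and because between them they hold both motifs. Each is written 5′ to 3′ on the gene's strand with motif matches in capitals.
Trim63, chr4:134314870-134315169, plus strand: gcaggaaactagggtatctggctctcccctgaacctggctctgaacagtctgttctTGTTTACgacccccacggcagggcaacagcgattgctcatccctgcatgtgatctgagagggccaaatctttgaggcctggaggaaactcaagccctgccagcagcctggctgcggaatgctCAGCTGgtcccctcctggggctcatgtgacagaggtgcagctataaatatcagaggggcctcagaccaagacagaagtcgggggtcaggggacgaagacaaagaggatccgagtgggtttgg
Fbxo40, start site 2, chr16:36990418-36990717, minus strand: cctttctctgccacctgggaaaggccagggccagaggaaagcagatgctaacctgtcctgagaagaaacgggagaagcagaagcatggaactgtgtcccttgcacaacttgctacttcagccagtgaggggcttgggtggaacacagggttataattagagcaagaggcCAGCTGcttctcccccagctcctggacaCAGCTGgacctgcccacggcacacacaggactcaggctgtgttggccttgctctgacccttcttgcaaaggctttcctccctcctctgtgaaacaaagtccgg
Asb2, start site 1, chr12:103338341-103338640, minus strand: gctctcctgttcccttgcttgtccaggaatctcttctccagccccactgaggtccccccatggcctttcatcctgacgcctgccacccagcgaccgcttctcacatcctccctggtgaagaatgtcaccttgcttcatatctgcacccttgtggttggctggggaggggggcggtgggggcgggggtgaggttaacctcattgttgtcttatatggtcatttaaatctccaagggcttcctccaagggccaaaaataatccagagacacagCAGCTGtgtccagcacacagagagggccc

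In the Trim63 window the first capitals, TGTTTAC, are GTAAACA on the other strand and begin 194 bases before the start site, and the CAGCTG match begins 72 bases before it. The Fbxo40 window holds CAGCTG at 81 and 53 bases before the start site, and the Asb2 window holds it 21 bases after. Across the 8 genes GTAAACA was found in 1 (Trim63) and CAGCTG in 4 (Trim63, Fbxo40, Asb2 and Nedd4, the last at 139 bases before its start site 2). Counted by window, 1 of the 11 held GTAAACA and 5 held CAGCTG. Among all 32851 windows of the same length, 3.65% held GTAAACA, 16.3% held CAGCTG and 0.557% held both. A match is a description of letters in a window, and its absence says nothing about binding elsewhere.

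Fbxo32 (ENSMUSG00000022358, chr15:58175879-58214932 in GENCODE M21 on GRCm38) encodes the F-box protein atrogin-1, the substrate receptor of a Skp1-cullin 1 ligase. Its level in unoperated BL6 samples was 343, 528, 467 and 388 CPM in replicates 1 to 4, and in operated BL6 samples 178, 279, 120 and 100 CPM. Every operated BL6 sample lay below every unoperated one. The change was -1.35 (SE 0.37, log2), with an edgeR adjusted p of 0.00456. In MRL the levels were 290, 429, 598 and 413 CPM without surgery and 85.4, 133, 198 and 302 CPM with it. The MRL ranges overlapped only through unoperated replicate 1 (290 CPM) and operated replicate 4 (302 CPM), and the change was -1.27 (SE 0.37, adjusted p = 0.0126 by edgeR). Without both of those samples, the lowest unoperated and the highest operated, it was -1.78, a larger fall that their choice fixed in advance. Fbxo32 kept its call in both strains under all 26 alternatives run for each. Here and for the genes below, the 26 include leaving out each sample of the other strain, which leaves the groups compared unchanged. In MRL, leaving out 1 BL6 sample kept the Fbxo32 change at -1.27 to -1.26. A call lost in few of the 26 can thus still depend on single samples of its own strain.

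Trim63 (ENSMUSG00000028834, chr4:134315120-134329629) encodes the RING-type ligase MuRF1, which is known to bind myosin and titin at the sarcomere. Unoperated BL6 samples lay close together at 273, 273, 247 and 252 CPM, whereas operated BL6 samples spread over 191, 445, 114 and 87.9 CPM. Replicate 2 of the operated BL6 samples was thus above all unoperated ones and the other 3 were below all of them. The fitted change of -0.32 (SE 0.49, 95% interval -1.37 to 0.73) did not pass the test, with an edgeR adjusted p of 0.577. Without operated BL6 replicate 2 it was -1 (adjusted p = 0.0603), and without operated BL6 replicate 4 it was -0.07. That replicate 2 also had the highest summed myofibre markers of the operated BL6 samples (165000 CPM), and replicate 4 the lowest (52600 CPM), with the highest macrophage sum (537 CPM) and fibroblast sum (5520 CPM); their part in the spread of Trim63 was not tested.

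In MRL, Trim63 was at 136, 159, 253 and 454 CPM without surgery and at 52.1, 90.1, 176 and 189 CPM with it. The groups overlapped, and the change of -0.98 (SE 0.5, 95% interval -2.04 to 0.08) missed the threshold with an edgeR adjusted p of 0.117. Leaving out unoperated MRL replicate 4 brought it to -0.52 (edgeR adjusted p = 0.415). Leaving out unoperated MRL replicate 1 together with operated MRL replicate 4 brought it to -1.44 (edgeR adjusted p = 0.0433). That pair held the lowest unoperated and the highest operated MRL level of Trim63, so a larger fall was fixed in advance. The authors' deposited table gives Trim63 in MRL a log2 fold change of -1.24 at a false discovery rate of 0.0285. In both operated groups the 4 samples had the same order for Trim63 as for Fbxo32, and in neither unoperated group did they. That order is a description of 4 samples in each group.

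**Figure D1:**
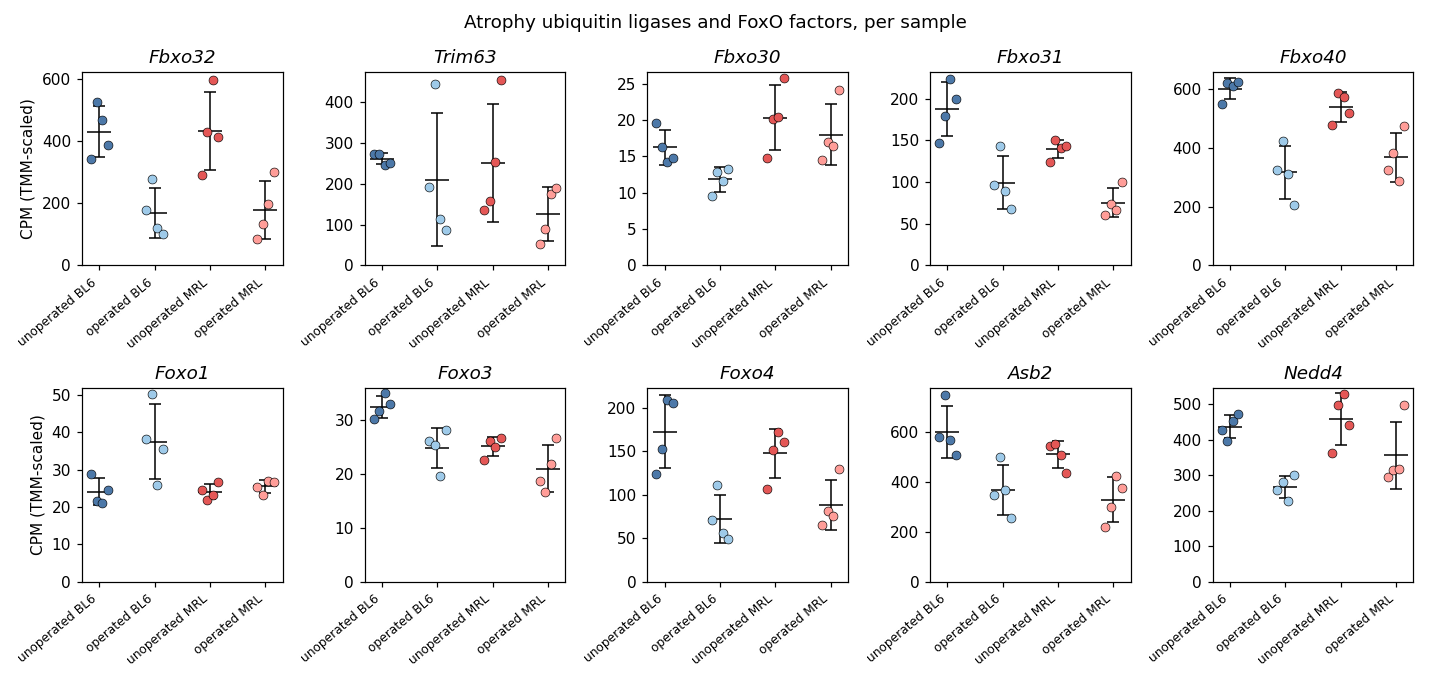
CPM (TMM-scaled, linear axis from 0) of each of the 10 genes in each of the 16 samples, with dots for samples in replicate order and bars for the mean and SD of the 4 samples of a group. The mean of Fbxo32 was 169 CPM after surgery in BL6 and 180 CPM after surgery in MRL, while Trim63 ranged from 87.9 to 445 CPM within the operated BL6 samples.

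Fbxo40 (ENSMUSG00000047746, chr16:36963460-36990467) encodes a muscle F-box protein reported to target the insulin receptor substrate Irs1. It was at 548, 621, 612 and 624 CPM in unoperated BL6 samples and at 325, 424, 312 and 206 CPM in operated ones. The operated samples lay below all unoperated ones, and the level fell to 52.7% (log2 change -0.93, SE 0.19, edgeR adjusted p = 0.000675). In MRL it was at 479, 587, 574 and 519 CPM without surgery and at 326, 383, 286 and 475 CPM with it. Those ranges did not overlap either, although operated replicate 4 came within a few CPM of the lowest unoperated sample, and the level fell to 68.1% (log2 change -0.55, SE 0.19, edgeR adjusted p = 0.0283). That call in MRL was lost in 4 of 26 alternatives, without unoperated MRL replicate 2 or 3 or operated MRL replicate 1 or 3, with adjusted p of 0.0649 to 0.0952. The CAGCTG matches shown above lie before the second of its start sites, 1 more lies 89 bases before the first, and counts per gene do not tell which start site was used.

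Fbxo31 (ENSMUSG00000052934, chr8:121549440-121578806) encodes an F-box protein reported to target the cell-cycle regulator cyclin D1. BL6 samples were at 147, 179, 224 and 200 CPM without surgery and at 96.9, 143, 88.9 and 68 CPM with it. MRL samples were at 124, 151, 141 and 143 CPM without surgery and at 60.4, 74.1, 66.1 and 100 CPM with it. In neither strain did the operated samples overlap the unoperated ones. The log2 change of Fbxo31 was -0.92 in BL6 (SE 0.21, edgeR adjusted p = 0.00122) and -0.89 in MRL (SE 0.21, adjusted p = 0.00439), and like Fbxo32 it kept both calls under all 26 alternatives.

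Fbxo30 (ENSMUSG00000047648, chr10:11281330-11298052), known as MUSA1, is an F-box gene that bone morphogenetic protein signalling is known to repress in muscle. Its levels were low, at 19.6, 16.3, 14.2 and 14.8 CPM in unoperated and 9.53, 12.9, 11.6 and 13.3 CPM in operated BL6 samples. The BL6 groups did not overlap, and the change was -0.46 (SE 0.18, edgeR adjusted p = 0.0354). This call was lost in 7 of 26 alternatives, among them scaling by library totals (-0.32, adjusted p = 0.24), and the authors' deposited table gives -0.41 at a false discovery rate of 0.0719. MRL samples were at 14.8, 20.2, 20.4 and 25.8 CPM without surgery and at 14.5, 17, 16.4 and 24.1 CPM with it. These overlapped, and the change of -0.17 (95% interval -0.56 to 0.21) did not pass the test (edgeR adjusted p = 0.438).

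Asb2 (ENSMUSG00000021200, chr12:103321142-103356001) encodes the substrate receptor of a cullin 5 ligase known to target filamins. Levels in BL6 were 581, 751, 568 and 508 CPM without surgery and 350, 501, 369 and 254 CPM with it, so the groups lay close but did not overlap. MRL levels were 544, 555, 510 and 436 CPM without surgery and 218, 301, 424 and 376 CPM with it, again without overlap. Asb2 fell to 61.2% in BL6 (log2 change -0.71, SE 0.22, edgeR adjusted p = 0.00923) and to 64.5% in MRL (-0.63, SE 0.22, adjusted p = 0.0277). The MRL call was lost in 5 of 26 alternatives, without unoperated MRL replicate 1, 2 or 3 or operated MRL replicate 1 or 2, with edgeR adjusted p of 0.0515 to 0.0866.

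Nedd4 (ENSMUSG00000032216, chr9:72662346-72749852) encodes a HECT-type ligase with many membrane and signalling substrates. In BL6 it was at 427, 395, 454 and 472 CPM without surgery and at 259, 282, 228 and 300 CPM with it, and all operated samples lay lower (log2 change -0.71, SE 0.17, edgeR adjusted p = 0.00191). MRL samples were at 362, 498, 528 and 441 CPM without surgery and at 296, 314, 318 and 497 CPM with it. Only operated MRL replicate 4 reached the unoperated range, and the change of -0.36 (SE 0.17) did not pass the test (edgeR adjusted p = 0.0902). Without that sample it was -0.56 with an edgeR adjusted p of 0.00388. As it was the highest of its group, leaving it out had to enlarge the fall, which is no independent support. Leaving out unoperated MRL replicate 1, the lowest of its group, gave -0.45 (edgeR adjusted p = 0.0477). Leaving out any other single MRL sample gave an edgeR adjusted p of 0.132 to 0.238.

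Of the FoxO factors, Foxo4 (ENSMUSG00000042903, chrX:101254528-101260873) changed most. It was at 124, 152, 209 and 205 CPM in unoperated and 71.2, 111, 55.9 and 49.5 CPM in operated BL6 samples, without overlap, and fell to 41.6% (log2 change -1.26, SE 0.27, edgeR adjusted p = 0.000863). In MRL it was at 107, 151, 172 and 160 CPM without surgery and at 65.4, 80.8, 75.3 and 130 CPM with it. Here operated replicate 4 lay above unoperated replicate 1, and the level fell to 59.5% (-0.75, SE 0.27, edgeR adjusted p = 0.0335). This call was lost in 6 of 26 alternatives, each with 1 MRL sample left out, with edgeR adjusted p of 0.0669 to 0.0972. Those samples were unoperated replicates 2, 3 and 4 and operated replicates 1, 2 and 3. Of the MRL samples, only unoperated replicate 1 or operated replicate 4 could be left out with the call kept. Without both unoperated MRL replicate 1 and operated MRL replicate 4 the change was -1.12. They were the lowest unoperated and the highest operated MRL sample for Foxo4, so a larger fall was fixed in advance.

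Foxo3 (ENSMUSG00000048756, chr10:42181841-42276755), whose active form is known to drive Fbxo32 transcription, changed less. BL6 samples were at 30.2, 31.8, 35.1 and 33.1 CPM without surgery and at 26.1, 25.4, 19.7 and 28.3 CPM with it. They did not overlap, and the change was -0.39 (SE 0.14, edgeR adjusted p = 0.0194), a call lost in 3 of 26 alternatives, with scaling by library totals at -0.24 (adjusted p = 0.268). MRL samples were at 22.7, 26.2, 25.1 and 26.8 CPM without surgery and at 18.8, 16.6, 21.9 and 26.7 CPM with it, and the change of -0.26 (95% interval -0.55 to 0.03) did not pass the test (edgeR adjusted p = 0.124).

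Foxo1 (ENSMUSG00000044167, chr3:52268336-52353221) was the only one of the 10 that rose. BL6 samples were at 29, 21.6, 21.2 and 24.7 CPM without surgery and at 38.3, 50.4, 25.8 and 35.6 CPM with it. Operated replicate 3 lay within the unoperated range and the other 3 above it, and the change was 0.64 (SE 0.16, edgeR adjusted p = 0.00256), called under all 26 alternatives. In MRL the levels were 24.5, 22, 23.2 and 26.7 CPM without surgery and 25.3, 23.2, 27 and 26.7 CPM with it. The MRL groups overlapped almost entirely, with a change of 0.08 (95% interval -0.25 to 0.42, edgeR adjusted p = 0.678).

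The 9 calls among the 10 genes in BL6 stand beside a background of 67.9% of all genes tested (35.1% higher and 32.8% lower). Of the 10, 8 were lower without overlap between the groups, against 29.2% of all genes. In MRL 5 of the 10 were called beside a background of 45% (22.3% higher and 22.7% lower), so the share called was near that of all genes, and the 5 were all lower. An unadjusted edgeR p under 0.05 in MRL was found for 6 of the 10, all lower, beside 6345 of the 11709 genes tested in either direction. Foxo1, the only one with a positive change in MRL, had an adjusted p of 0.481 or more under all 26 alternatives, DESeq2 and limma-voom included. There 3 of the 10 were lower without overlap (Fbxo31, Fbxo40 and Asb2), against 16.7% of all genes. The median change of the 10 was -0.71 in BL6, where that of all genes was 0.04, and -0.59 in MRL, where it was 0.01. Summed over the 10, the level was 2520 to 2970 CPM in unoperated and 1140 to 2280 CPM in operated BL6 samples, and 2110 to 2840 CPM in unoperated and 1160 to 2150 CPM in operated MRL samples.

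**Figure D2:**
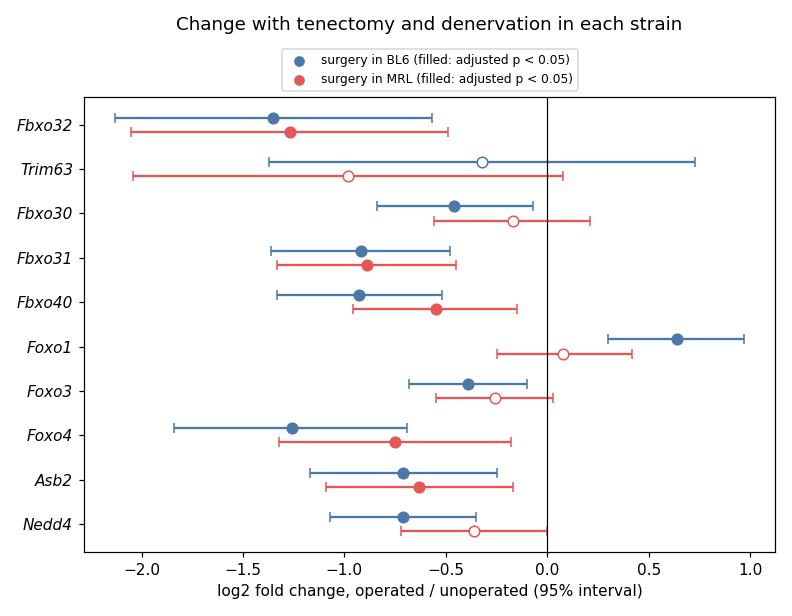
Log2 fold change with surgery (horizontal axis, operated over unoperated) of the 10 genes in BL6 and in MRL, with 95% intervals from the edgeR fit and filled symbols for an adjusted p under 0.05. In BL6 8 genes are lower and Foxo1 is higher at 0.64; in MRL 5 are lower, and the intervals of Trim63 are the widest in both strains.

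The count in MRL moved with single samples. It was 7 without operated MRL replicate 4, beside 52.5% of all genes called, where Foxo3 (-0.40, edgeR adjusted p = 0.0166) and Nedd4 joined the lower genes. That sample was the highest of its group for Foxo3 and for Nedd4, so leaving it out had to enlarge their falls. The count was 2 without unoperated MRL replicate 2, unoperated MRL replicate 3 or operated MRL replicate 1, beside 33.2%, 33.7% and 34.1% of all genes. It was 3 without operated MRL replicate 2 or operated MRL replicate 3, beside 38.7% and 29.8%, so the share of all genes called also moved with the sample left out. Without both unoperated MRL replicate 1 and operated MRL replicate 4 it was 9, every one lower, beside a background of 54.7% (28% lower), with a median of -0.71. Those samples were the lowest unoperated and the highest operated MRL sample in the sum of the 10 genes. The larger count without them is thus no independent support for a fall. Among the genes that then passed were Fbxo30 (-0.47, edgeR adjusted p = 0.019) and Nedd4 (-0.66, adjusted p = 0.000968). Operated MRL replicate 4 was the highest of its group for 8 of the 10 genes and replicate 1 the lowest for 7. Among the operated BL6 samples, replicate 2 was the highest for 7 and replicate 4 the lowest for 6.

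**Figure D3:**
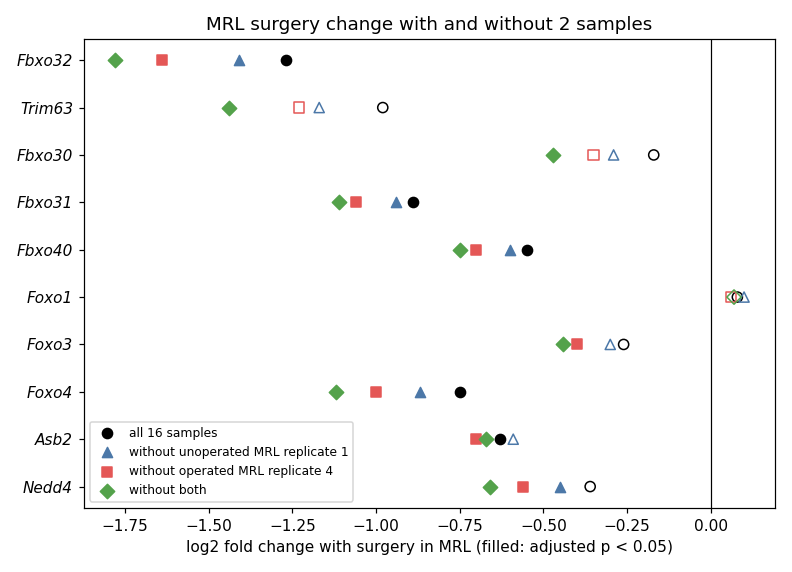
Log2 fold change with surgery in MRL (horizontal axis) of the 10 genes from all 16 samples, without unoperated MRL replicate 1, without operated MRL replicate 4, and without both, with filled symbols for an edgeR adjusted p under 0.05. Fbxo32 moves from -1.27 to -1.78 and Nedd4 from -0.36 to -0.66 when both are left out, and Foxo1 has an unfilled symbol in all 4 cases.

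Markers of myofibres and of other cells moved with surgery as well. The counts that follow stand beside 35.1% of all genes higher and 32.8% lower in BL6, and 22.3% and 22.7% in MRL. Of the 8 myofibre markers, 5 fell in BL6 (median of the list -0.81) and 4 in MRL (-0.79), and their summed level went from 141000 to 197000 CPM to 52600 to 165000 CPM in BL6 and from 132000 to 148000 CPM to 75900 to 103000 CPM in MRL. All 5 measured adipocyte markers of 6 listed rose in both strains, from a sum of 212 to 282 CPM to 1220 to 1680 CPM in BL6 and from 267 to 375 CPM to 1100 to 1920 CPM in MRL. Endothelial markers rose in 4 of 5 and 5 of 5 cases, and Schwann cell markers in 5 of 5 and 4 of 5, in BL6 and MRL. Macrophage markers rose in 6 of 9 cases in BL6 and 1 of 9 in MRL, and fibroblast markers in 4 of 7 and 1 of 7. Of the 2 measured satellite cell markers, Pax7 (log2 change -0.69, edgeR adjusted p = 0.0339) and Cdh15 (-0.58, adjusted p = 0.00162) fell in BL6, and in MRL Cdh15 fell (-0.36, adjusted p = 0.0422) while Pax7 was at 0.21 (adjusted p = 0.53). The part of these shifts in the fall of the ligase transcripts was not tested, and in bulk muscle fewer cells of a type and less RNA per cell cannot be told apart. No marker measured was at 0 in any sample, and Lep, Chrng, Myf5 and Calcr were not analysed here.

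**Figure D4:**
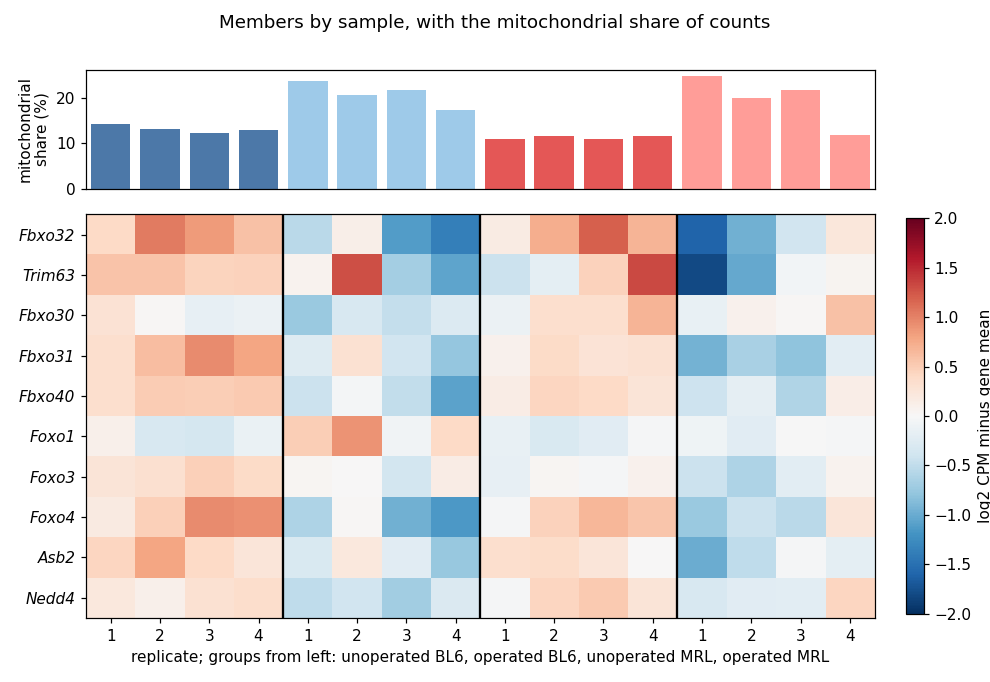
Log2 CPM of the 10 genes (rows) in the 16 samples (columns, grouped, replicates 1 to 4), each gene centred on its own mean, under a bar chart of the mitochondrial share of counts in percent. Operated MRL replicate 4, with a share of 11.8%, is the highest of its group for 8 of the 10 genes, and Foxo1 runs against the others in operated BL6 samples.

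Whether the strains responded differently was tested by the interaction, the change in MRL minus the change in BL6. None of the 10 passed in edgeR, DESeq2 or limma-voom, beside a background of 0.248% of genes called by edgeR, and 1 of the 10 (Foxo1) had an unadjusted p under 0.05, as did 1842 of the 11709 genes tested. Foxo1 differed by -0.55 (SE 0.22, 95% interval -1.03 to -0.08), with an edgeR adjusted p of 0.264. For Fbxo32 the difference was 0.08 with an interval of -1 to 1.17, and for Trim63 -0.66 with an interval of -2.15 to 0.82, both wide on either side of 0. Narrower intervals held for Fbxo30 (0.29, from -0.26 to 0.83) and Foxo3 (0.13, from -0.28 to 0.53). Fbxo31 (0.03, from -0.59 to 0.64) and Asb2 (0.08, from -0.57 to 0.72) were near 0, while Fbxo40 (0.37, from -0.2 to 0.94), Foxo4 (0.52, from -0.29 to 1.32) and Nedd4 (0.35, from -0.16 to 0.85) had positive estimates that did not pass the test. Without unoperated MRL replicate 1 and operated MRL replicate 4 those were 0.17, 0.14 and 0.05, and without operated MRL replicate 4 alone 0.22, 0.27 and 0.14. These were the lowest values, and they moved the other way with other samples. Over all runs with 1 sample left out, the interaction ranged from 0.22 to 0.55 for Fbxo40, 0.27 to 0.8 for Foxo4 and 0.14 to 0.43 for Nedd4.

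In unoperated muscle none of the 10 differed between the strains by edgeR, DESeq2 or limma-voom, beside a background of 10.4% called by edgeR. Only Foxo3 had an unadjusted p under 0.05, at -0.37 in MRL against BL6 (SE 0.14, edgeR adjusted p = 0.104). Its MRL samples (22.7 to 26.8 CPM) all lay below its BL6 samples (30.2 to 35.1 CPM), as was so, in either direction, for 25.1% of all genes. Fitted on the unoperated samples alone, Foxo3 (adjusted p = 0.00866) and Fbxo31 (-0.43, adjusted p = 0.0407) passed in edgeR. That fit called 2438 of the 11710 genes in the count table, against 1216 in the fit to all 16 samples. For the atrophy ligases the estimates were 0.00 for Fbxo32 (95% interval -0.76 to 0.77) and -0.06 for Trim63 (-1.11 to 0.99).

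In operated muscle 2 of the 10 differed between the strains, beside a background of 12.9% (7.6% higher in MRL and 5.27% lower). Fbxo30 was higher in MRL, at 14.5 to 24.1 CPM against 9.53 to 13.3 CPM without overlap, as was so for 7.41% of all genes on that side (log2 difference 0.61, SE 0.18, edgeR adjusted p = 0.0391). Foxo1 was lower in MRL, at 23.2 to 27 CPM against 25.8 to 50.4 CPM (-0.55, SE 0.16, edgeR adjusted p = 0.0314), with operated BL6 replicate 3 inside the MRL range. The Fbxo30 call was lost in 11 of 26 alternatives and the Foxo1 call in 7, and neither passed with library totals, with only the operated samples fitted, or without both of the MRL samples named above. In the authors' deposited table Foxo1 passes at a false discovery rate of 0.0395 and Fbxo30 does not (0.0718). Nedd4 was 0.41 higher in MRL but did not pass (edgeR adjusted p = 0.126).

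Levels of different genes were compared as CPM per kilobase of exon. Asb2 had the highest mean in every group, at 170 ± 29.4 (SD, n = 4) without and 104 ± 28.8 with surgery for BL6, and at 144 ± 15.2 without and 93.2 ± 25.4 with surgery for MRL. Its samples lay above those of all the others only in unoperated BL6 muscle. Trim63 overlapped it in operated BL6 muscle (up to 157) and unoperated MRL muscle (up to 160). In operated MRL muscle Fbxo40 reached 86.1, where Asb2 began at 61.5. Next in unoperated BL6 muscle came Fbxo40 (109 ± 6.47 CPM per kilobase) and Trim63 (91.8 ± 4.79), whose sample ranges did not overlap. Fbxo32 (61.8 ± 11.8), Foxo4 (49.6 ± 12), Nedd4 (39.8 ± 3.06) and Fbxo31 (34.3 ± 5.98) followed, each neighbour overlapping the next. Foxo3 (4.29 ± 0.277), Fbxo30 (3.12 ± 0.468) and Foxo1 (2.78 ± 0.415) were lowest, with Foxo3 above the other two and those overlapping. The order in unoperated MRL muscle was the same down to Fbxo31 (25.5 ± 2.06), and then Fbxo30 (3.91 ± 0.858), Foxo3 (3.33 ± 0.238) and Foxo1 (2.78 ± 0.235) followed, where each neighbour overlapped the next.

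After surgery Trim63 (73.5 ± 57.4 CPM per kilobase) had a mean above Fbxo40 (57.5 ± 16.2) in BL6 with overlapping samples, and stayed below it in MRL (44.7 ± 23.3 against 66.7 ± 14.9), again overlapping. Nedd4 moved above Fbxo32 and Foxo4 in both strains, at 24.3 ± 2.86 against 24.2 ± 11.5 and 20.6 ± 7.92 in BL6 and 32.4 ± 8.6 against 25.8 ± 13.4 and 25.2 ± 8.24 in MRL, differences within the spread. Foxo1 was the lowest of the 3 low genes in unoperated BL6 muscle and had the highest mean of them in operated BL6 muscle (4.33 ± 1.17), where its samples overlapped those of Foxo3 (3.29 ± 0.483).

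The genes whose pattern over the 16 samples was most like that of 4 of the ligases were found by the root mean square difference of log2 CPM, each gene centred on its mean. For Fbxo32 they were Klhl38 (0.24), Tmcc1 (0.29) and Ttll7 (0.3), and for Trim63 they were Klf15 (0.45), Synj2 (0.47) and Casr (0.47). Fbxo40 had the closest neighbours, Cs (0.08), Fem1a (0.09) and Smyd1 (0.09), and Asb2 had Cacng6 (0.21), Pomgnt2 (0.22) and Tmem109 (0.22). Within the set, Fbxo40 and Foxo4 were nearest each other (0.25), as were Fbxo30 and Nedd4 (0.25). The nearest to Trim63 was Fbxo32, at the larger distance of 0.55. These distances describe 16 samples that share groups and carry no test.

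The counts in the 5 lists that follow stand beside 67.9% of all genes called in BL6 (32.8% lower) and 45% in MRL (22.7% lower). The first list held 18 other muscle genes, ubiquitin ligases except for Zfand5, which encodes a ubiquitin-binding protein. Of the 18, 13 fell and 1 rose in BL6 (median -0.63), with Zfand5 among the falls (-0.74, edgeR adjusted p = 0.0114). In MRL 4 fell and 1 rose (median -0.30). Without unoperated MRL replicate 1 and operated MRL replicate 4, 11 fell and 1 rose (median -0.4), beside 54.7% of all genes then called (28% lower). With all 16 samples the share called was 77.8% in BL6 and 27.8% in MRL. The largest fall was in Trim55, which encodes MuRF2, a relative of Trim63. It went from 97.1 ± 5.91 to 19.9 ± 7.99 CPM (SD, n = 4) in BL6 (log2 change -2.29, edgeR adjusted p = 5.32e-05) and from 84.4 ± 13.8 to 29.4 ± 16.7 CPM in MRL (-1.51, adjusted p = 0.00307). The single ligase of the list that rose was Stub1, which encodes the chaperone-linked ligase CHIP, by 0.76 in BL6 (edgeR adjusted p = 0.000105) and 0.40 in MRL (adjusted p = 0.0173).

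The next list held 9 measured ligase partners: parts of cullin ligases, and Ndfip1 and Ndfip2, which are adaptors of Nedd4-type ligases. Of the 9, 4 fell and 2 rose in BL6 (median -0.07) and 3 fell and 1 rose in MRL (median 0.05). That was 66.7% and 44.4% called, near the shares of all genes. Ndfip1 and Ndfip2 were among the falls in BL6 (log2 change -0.26 for each, edgeR adjusted p = 0.0313 and 0.0214). Cul5, the scaffold that Asb2 works with, fell from 104 ± 6.95 to 62.6 ± 16.3 CPM in BL6 (log2 change -0.74, edgeR adjusted p = 0.000741) and from 101 ± 10.6 to 65.4 ± 7.59 CPM in MRL (-0.63, adjusted p = 0.00597). Elob, the elongin B adaptor of the same ligases, rose by 0.89 in BL6 (edgeR adjusted p = 0.000184) and 0.61 in MRL (adjusted p = 0.00667).

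Of 20 regulators upstream of these genes, 11 fell and 3 rose in BL6 (median -0.49) and 6 fell and 1 rose in MRL (median -0.15), or 70% and 35% called. Myog, which is known to activate Fbxo32 and Trim63 after denervation, rose from 3.06 ± 1.24 to 12.7 ± 4.05 CPM in BL6 (log2 change 2.05, edgeR adjusted p = 9.26e-05) and from 3.05 ± 1.16 to 11 ± 2.98 CPM in MRL (1.85, adjusted p = 0.0012). Dach2, a repressor of Myog in innervated muscle, fell from 3.39 ± 0.737 to 0.669 ± 0.153 CPM in BL6 (-2.35, adjusted p = 2.02e-05 by edgeR). In MRL it was already at 0.244 ± 0.0952 CPM without surgery, a difference between unoperated groups of -3.76 (edgeR adjusted p = 4.6e-07), and at 0.173 ± 0.0381 CPM with it, from 3 to 13 counts per sample. The interaction for Dach2 was 1.85 and did not pass the test (edgeR adjusted p = 0.125). Smad3, a transducer of TGF-beta and myostatin signals, changed by -1.60 in BL6 and -1.32 in MRL (edgeR adjusted p = 0.00018 and 0.00264), and Hdac4, a deacetylase that links denervation to Myog, changed by -0.38 in BL6 (adjusted p = 0.0308) and 0.28 in MRL (adjusted p = 0.123).

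Of 20 other known FoxO targets, 8 fell and 1 rose in BL6 (median -0.32) and 2 fell and 1 rose in MRL (median -0.27). Without the same pair of MRL samples 6 fell and 1 rose in MRL (median -0.32), beside 54.7% of all genes then called (28% lower). With all 16 samples, the 45% called in BL6 and 15% in MRL were below the shares of all genes, as were the 10% lower in MRL. Ctsl, a lysosomal protease, rose by 0.52 in BL6 (edgeR adjusted p = 0.00103) and 0.66 in MRL (adjusted p = 0.0012). The kinase gene Ulk1, which starts autophagy, fell most in BL6 (-1.09, edgeR adjusted p = 5.9e-05), and Klf15, a glucocorticoid-responsive factor, fell most in MRL (-0.97, adjusted p = 0.0241). Gadd45a, a stress gene that denervation is known to induce, was at 18.9 ± 3.76 and 21.4 ± 8.24 CPM in unoperated and operated BL6 samples and at 9.87 ± 0.737 and 14.1 ± 2.64 CPM in MRL samples. Neither surgery comparison of Gadd45a passed (edgeR adjusted p = 0.482 and 0.0638).

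The 12 reported substrates of these ligases were mixed: 5 rose and 4 fell in BL6 (median 0.12), and 3 rose and 3 fell in MRL (median -0.02), or 75% and 50% called. Ccnd1, the cyclin D1 gene, rose by 1.79 in BL6 (edgeR adjusted p = 0.000308) and 1.30 in MRL (adjusted p = 0.00679). Irs1 fell from 103 ± 35 to 35.7 ± 1.3 CPM in BL6 (log2 change -1.53, edgeR adjusted p = 0.000208), and in MRL it was at 69.2 ± 10.1 and 60.7 ± 30.1 CPM, where operated replicate 4 was at 105 CPM and the other 3 at 40.9 to 48.9 CPM. Its interaction of 1.35 did not pass (edgeR adjusted p = 0.137). Mybpc2, a fast-fibre myosin-binding protein, fell most in MRL (-1.05, adjusted p = 0.0217 by edgeR). Myod1, a reported Fbxo32 substrate, changed by -0.76 in BL6 (adjusted p = 0.002) and -0.57 in MRL (adjusted p = 0.0212). Eif3f, a translation factor subunit and another reported Fbxo32 substrate, rose by 0.31 in BL6 (adjusted p = 0.0367) and was at 0.05 in MRL (adjusted p = 0.759). The Asb2 substrate Flnc, filamin C, changed by -0.10 in BL6 and 0.27 in MRL, and neither passed (edgeR adjusted p = 0.698 and 0.317). Transcript levels of a substrate do not measure its breakdown, and none of the genes in these 5 lists passed the interaction test, where 3, 1, 6, 2 and 3 genes of the lists, in the order given above, had an edgeR unadjusted p under 0.05.

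Beside these counts, the authors' deposited table calls 8 of the 10 ligase and FoxO genes in BL6 surgery, 6 in MRL surgery, none between unoperated strains and 1 between operated strains, at the same threshold of 0.05. Of the calls made here, 8, 5 and 1 are also called there in the surgery comparisons of BL6 and MRL and in operated muscle. The share of all genes called in the deposited table was not computed, so these counts have no background and say nothing particular about the 10 genes.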

How the data were processed

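RNA sequencing measured messenger RNA in 16 samples, 4 in each of 4 groups. Per the submitters' processing notes the tools were FastQC, STAR and edgeR and the build mm10, with no versions; the counting program and its use of strand are not given in the sources used here. The authors deposited whole-number counts per gene, and beside them a table with log2 fold changes, p-values and false discovery rates per the file headers. Groups came from the strain and surgery labels.

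From the counts, R 4.3.3 with edgeR 4.0.16 gave TMM factors, filterByExpr (minimum count 10) kept 11709 genes, and 1 mean per group was fitted by quasi-likelihood to all 16 samples without a replicate block. There were 5 comparisons: surgery in each strain, their difference, and the strains without and with surgery. P-values were adjusted by Benjamini-Hochberg over all genes tested. The scripts were tested on simulated data. Log2 CPM used a prior count of 2, intervals are 95% intervals from the fit, and levels per length used exon lengths of GENCODE M21. Alternatives were DESeq2 1.42.0 as a test and as size factors, limma-voom 3.58.1, library totals, no filter or a mean of 5 CPM, no mitochondrial genes, only the groups compared, a replicate block, each sample left out, and, chosen after seeing the data, unoperated MRL replicate 1 and operated MRL replicate 4 both left out.

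The 10 genes and the other lists were chosen with earlier results of these data known. Of each other list the text names the called gene with the largest rise and the largest fall in each surgery comparison, and always Myog, Hdac4, Dach2, Gadd45a, Eif3f, Myod1, Irs1, Ccnd1, Flnc and Trim55. Traf6 is in 2 lists. Total counts per sample were 24323862 to 43552964, and counting error is small beside the spread between samples. The closest of 24 replicate pairs differed by a chi-square of 14.7 per degree of freedom, so all 16 samples were counted separately. Sequences are RefSeq promoters.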

Additional observations from a re-analysis of the deposited data

Results flagged for a closer look

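Across the 10 genes and 4 groups, 40 sets of 4 samples were checked for a sample far from the others, and 2 were found, where chance gives about 1 in 20. Fbxo40 in unoperated BL6 replicate 1 was at 548 CPM while the other 3 samples lay at 612 to 624 CPM, a gap of 0.834 of the whole range, just past the limit for 4 samples. Nedd4 in operated MRL replicate 4 was at 497 CPM while the other 3 lay at 296 to 318 CPM, a gap of 0.893 of the range.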

How the results depend on the processing

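Across alternatives, 1290 values of single genes were recomputed: 1191 kept direction and side of the threshold, 43 lost a call, 10 gained one and 46 changed sign, none of these in the 520 values of the surgery comparisons. Library totals moved the median of all genes from 0.04 to 0.18 in BL6 surgery and from 0.01 to 0.15 between unoperated strains, and calls higher and lower in MRL from 588 and 628 to 741 and 313 unoperated and from 890 and 617 to 994 and 383 operated. Genes called in the interaction went from 29 to 14 with library totals, 250 with DESeq2 and 2 with the replicate block. With only the compared groups fitted, 2438 genes and 2 of the 10 passed between unoperated strains, and 574 genes and 0 of the 10 between operated strains. Between operated strains 0 of the 10 passed with library totals, beside 1377 genes in all, and 1 with limma-voom, beside 1445 genes. There 0 passed without unoperated MRL replicate 1 and operated MRL replicate 4, beside 1319 of 11709 genes (11.3%). With that pair left out 9 passed for MRL surgery, beside 6399 genes (54.7%). Without those samples the interaction was -0.43 for Fbxo32, -0.01 for Fbxo30, -0.19 for Fbxo31 and -0.06 for Foxo3, the unoperated strain difference of Trim63 was 0.13 and the operated one of Fbxo32 was -0.29. Between unoperated strains, library totals gave Trim63 0.07 and Foxo1 0.14, leaving out mitochondrial genes gave Fbxo32 -0.01, limma-voom gave Fbxo32 -0.02 and Foxo1 0.01, and the replicate block gave Fbxo32 -0.01 and Foxo1 0.00; between operated strains limma-voom gave Fbxo32 0.00. None of these sign changes concerned a called value, and their cause was not tested. Leaving out 1 sample at a time gave 3490 to 6145 genes and 2 to 7 of the 10 for MRL surgery, and 1 to 69 genes for the interaction. It gave 821 to 1572 genes and 0 to 1 of the 10 between unoperated strains, and 1030 to 1842 genes and 0 to 2 of the 10 between operated strains. The interaction then ranged from -0.28 to 0.44 for Fbxo32, -0.91 to 0.02 for Trim63, -0.14 to 0.26 for Fbxo31, -0.01 to 0.22 for Foxo3 and -0.07 to 0.26 for Asb2. The unoperated strain difference ranged from -0.2 to 0.14 for Fbxo32, -0.52 to 0.13 for Trim63, -0.06 to 0.09 for Foxo1 and -0.02 to 0.15 for Nedd4, and the operated one from -0.29 to 0.44 for Fbxo32 and -0.3 to 0.03 for Asb2. Same-numbered samples of different groups correlated at -0.474 to 0.452 over 16 pairs, 10 of them over 0.1, and 5 of 16 samples correlated best with their own number, so the numbers were not taken as pairing samples; with the replicate block 7930, 5197, 2, 1146 and 1354 genes passed in BL6 surgery, MRL surgery, the interaction, and between unoperated and operated strains, and 9, 5, 0, 0 and 2 of the 10.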

Other observations

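Among the other listed genes, Rnf7, the RING subunit that pairs with Cul5, had the largest strain difference of the cullin partners, singled out after its values were seen. It was at 55.9 ± 3.25 CPM (SD, n = 4) in unoperated BL6 and 17.5 ± 1.44 CPM in unoperated MRL samples (log2 difference -1.67, edgeR adjusted p = 1.94e-07). After surgery it was at 64.3 ± 11 and 18.9 ± 2.89 CPM (-1.76, adjusted p = 1.23e-07). Myl1, a fast myosin light chain and reported Trim63 substrate, was also lower in MRL, at 4680 ± 540 against 2640 ± 190 CPM without surgery (-0.83, edgeR adjusted p = 0.00307) and 6360 ± 1230 against 2470 ± 338 CPM with it (-1.36, adjusted p = 3.06e-05). Fbxo21, an F-box ligase gene known from atrophy studies, was at 19.3 ± 1.42 CPM in unoperated BL6 and 11.2 ± 0.718 CPM in unoperated MRL samples (-0.78, edgeR adjusted p = 0.00761). After surgery it was at 14.4 ± 3.67 and 10.4 ± 2.69 CPM, where the samples overlapped (11.8 to 19.8 against 7.91 to 14.1 CPM) and the difference did not pass.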
